A study of Homo sapiens with 12 samples.

Results

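BCL6 and 5 subunits of the corepressor complexes that it recruits (BCOR, NCOR1, HDAC3, TBL1XR1 and CTBP1) were followed in SUDHL6 cells. The 6 genes were taken by symbol from count tables of 23368 symbols, by a rule that uses no measured value. All 6 passed the filter on low counts in each comparison below. SUDHL6 is an established human line of germinal centre type diffuse large B-cell lymphoma, and every library came from this 1 line. GSK591 blocks PRMT5, an enzyme that places symmetric dimethyl marks on arginine residues of histones and other proteins. The 4 groups of 3 samples were cells given 200 nM GSK591 for 96 h, cells given vehicle (0.01% DMSO) for 96 h, cells given 200 nM GSK591 for 24 h, and cells given the same vehicle for 24 h. Polyadenylated RNA was sequenced. The title of the study links PRMT5 to the BCL6 protein and to survival of lymphoma cells, and the comparisons below ask how the transcripts of BCL6 and its corepressors stood after inhibition of PRMT5.

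BCL6 is a zinc finger repressor that germinal centre B cells need, and it holds plasma cell differentiation, checkpoint and cell cycle arrest genes low. A groove on its BTB domain dimer binds BCOR or NCOR1. NCOR1 brings in HDAC3, the histone deacetylase of that complex, and the WD40 proteins TBL1XR1 and TBL1X, which control exchange of corepressors, while BCOR carries a Polycomb-type ubiquitin ligase complex and CTBP1 a further set of histone-modifying enzymes. BCL6 also represses its own gene, with CTBP1 among the corepressors used there.

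The depth of 11 libraries was 48.5 to 64.4 M counts, whereas that of vehicle library 1 at 96 h, numbered as its replicate, was 547.9 M. Replicates of a group differed by more than sampling noise, with a chi-square per degree of freedom between 2.26 and 41.9. The biological coefficient of variation was 8.19% at 96 h and 2.35% at 24 h, so that small differences were detectable more readily at 24 h. At 96 h the libraries numbered 2 stood apart from numbers 1 and 3 in both treatments. Germinal centre B-cell markers were present, with 9 of 10 in the tables and each above 1 CPM (counts scaled by TMM to 1 common library size over the 12 libraries) on average in every group. No marker of epithelium, fibroblasts, myeloid cells or T cells averaged over 1 CPM in any group, and CD3D, CD2, DCN and KRT19 were at 0 in all 12 libraries. The 5 myeloid markers summed to between 0.738 and 1.38 CPM in GSK591 libraries at 96 h, against 0.213 to 0.520 CPM in vehicle libraries at 96 h. The 4 fibroblast markers summed to between 0.428 and 1.27 CPM in GSK591 libraries at 96 h, against 0.174 to 0.506 CPM in vehicle libraries. The 6 T-cell markers summed to at most 0.384 CPM in GSK591 libraries and 0.229 CPM in vehicle libraries at 96 h, and the 5 epithelial markers to at most 0.217 CPM in GSK591 and 0.120 CPM in vehicle libraries. Their part in the results was not tested. The labels do not state whether samples of a group were grown separately, so the p-values reflect only how far these samples differ from each other, possibly for technical reasons. In bulk RNA, fewer cells of a kind and less RNA per cell cannot be told apart.

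Transcripts of BCL6 itself were slightly higher after 96 h of GSK591. BCL6 and NCOR1 had the most alike profiles of any pair among the 6 genes, with a Pearson correlation of log2 CPM of 0.992 over the 12 libraries, which share treatments, so it is given as a description. Some genes outside the 6 were still closer in profile to BCL6 and to NCOR1, as given below. The start windows of the 6 genes that hold a BCL6-type motif are shown first. Each window covers 250 bases before to 50 bases after an annotated start in RefSeq on GRCh38.p14, which is another build than that of the counts. It is read 5′ to 3′ on the strand of the gene, with matches to TTCNNNGAA in capitals. This motif reads the same on both strands, and it is shared by the core site of BCL6, TTCCTAGAA, and by STAT factors. The BCL6 window lies at chr3:187745419-187745718 on the minus strand, and the NCOR1 window at chr17:16194590-16194889 on the minus strand. The NCOR1 window belongs to an alternative start inside the gene, downstream of its first annotated start, and the window at that first start held no match. BCL6 also had another window, at chr3:187736452-187736751 inside the gene, which held no match and is not shown.
BCL6 promoter: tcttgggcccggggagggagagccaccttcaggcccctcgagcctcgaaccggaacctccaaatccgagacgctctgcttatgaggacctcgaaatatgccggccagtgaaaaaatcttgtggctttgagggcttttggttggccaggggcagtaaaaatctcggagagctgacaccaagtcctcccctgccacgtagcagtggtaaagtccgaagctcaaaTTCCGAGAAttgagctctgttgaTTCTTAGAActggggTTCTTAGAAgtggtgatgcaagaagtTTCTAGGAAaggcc
NCOR1 internal start: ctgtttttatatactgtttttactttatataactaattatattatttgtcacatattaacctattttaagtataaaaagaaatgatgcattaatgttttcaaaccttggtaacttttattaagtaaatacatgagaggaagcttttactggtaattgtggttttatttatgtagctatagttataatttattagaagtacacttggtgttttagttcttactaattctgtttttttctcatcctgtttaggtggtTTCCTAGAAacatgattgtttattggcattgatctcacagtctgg
The BCL6 window held 4 matches that do not overlap each other, TTCCGAGAA, TTCTTAGAA, TTCTTAGAA and TTCTAGGAA, and TTCTAGGAA is the reverse complement of the core site. The internal NCOR1 window held 1 match, TTCCTAGAA, the core site itself. All 6 genes had windows in the table, 12 in all, and 2 of the 12 held the motif; the other windows did not. Of 35116 RefSeq windows of the same length, 7.66% held at least 1 match and 0.0199%, or 7 windows, held 4 or more. The core site in either orientation stood in 0.373% of windows. These matches describe letters in a reference sequence and say nothing about binding in these cells.

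BCL6 had 536, 499 and 533 CPM in the GSK591 libraries at 96 h, against 467, 459.5 and 460.1 CPM in the vehicle libraries at 96 h. Each GSK591 library lay above each vehicle library, with replicate 2 the nearest to vehicle. The log2 fold change was 0.19 ± 0.05 (SE, n = 3 each; 95% interval 0.08 to 0.31), or 1.14-fold, with an adjusted p of 0.0174 in edgeR's quasi-likelihood test. Fold changes here and below were fitted within each time, so they differ slightly from ratios of the printed CPM. Of all genes tested at 96 h, 28.4% had a log2 fold change at least as high, so a rise of this size was common. The call did not hold without vehicle library 1 (adjusted p = 0.0682 in edgeR's test), vehicle library 3 (0.0783), GSK591 library 1 (0.0742) or GSK591 library 3 (0.0593), while the log2 fold change stayed between 0.17 and 0.21, and it was also lost with no filter on low counts. It was kept without GSK591 library 2 (0.21, adjusted p = 0.00411) and without both libraries numbered 2 (0.21, adjusted p = 0.000762). In the authors' deposited table the log2 fold change of BCL6 at 96 h was 0.19 with an FDR of 0.0264.

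After 24 h of treatment, BCL6 stood at 449, 445 and 444 CPM in GSK591 libraries, against 436, 433 and 436 CPM in vehicle libraries. The groups did not overlap, but the log2 fold change of 0.04 ± 0.02 did not pass the threshold (adjusted p = 0.241, edgeR's quasi-likelihood test; 95% interval -0.01 to 0.08). The 96 h effect minus the 24 h effect was 0.14 ± 0.05 on the log2 scale for BCL6, with an adjusted p of 0.0589 in edgeR's test of 12 samples. That difference passed when scaled by library size alone (0.17, adjusted p = 0.0146), with a filter of at least 5 CPM in 3 samples (0.16, 0.0156), with DESeq2 (0.14, 0.0140) and without GSK591 library 2 of 96 h (0.17, 0.00325).

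**Figure D1:**
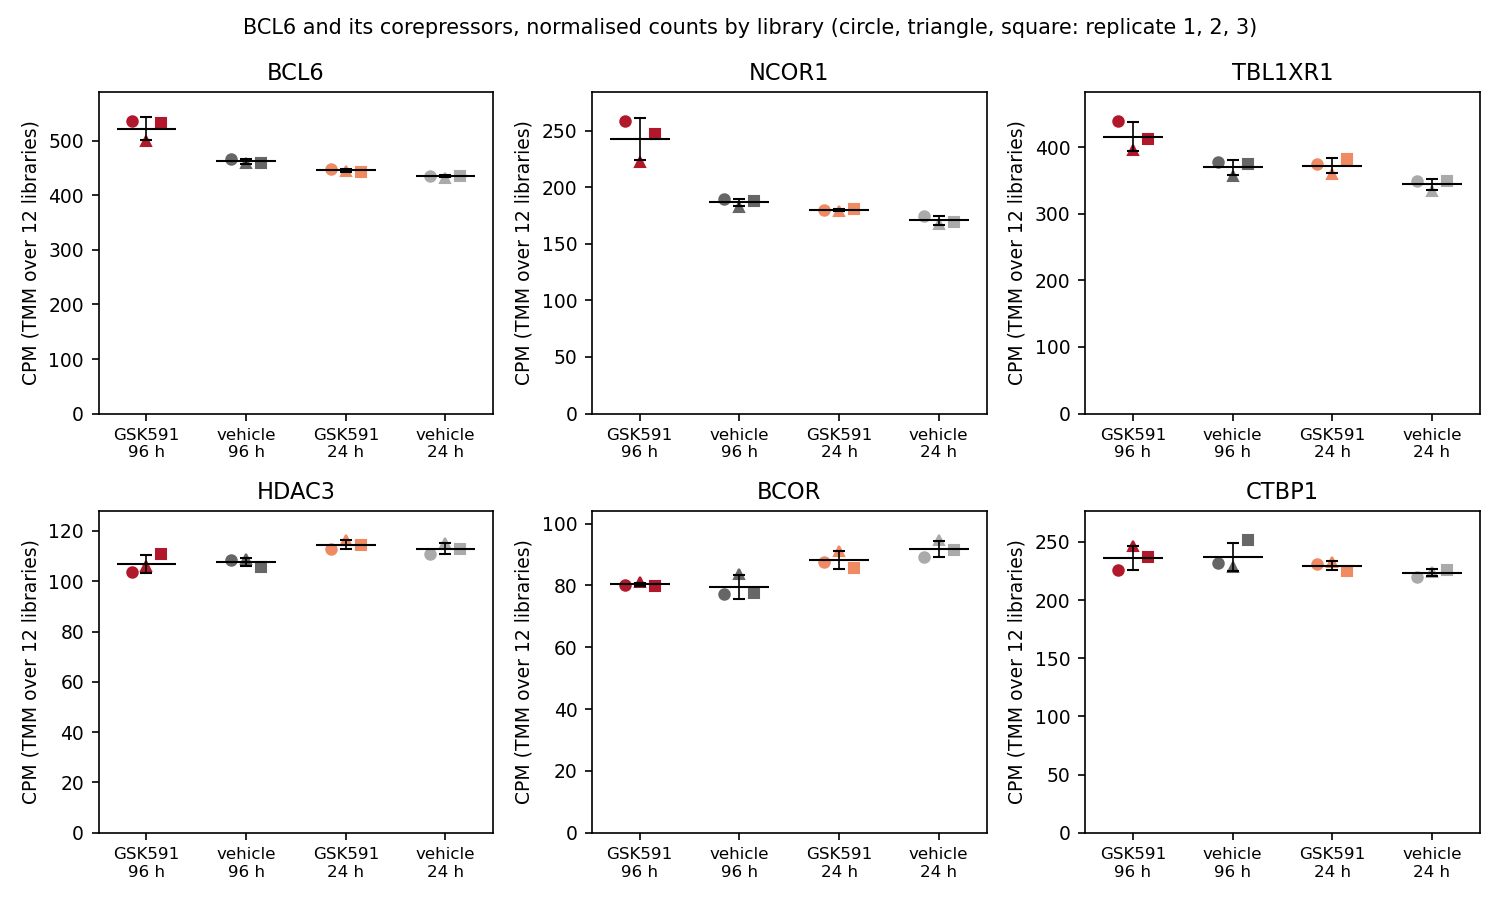
Normalised counts of BCL6 and its 5 corepressors in each library. The vertical axes give CPM after TMM scaling over 12 libraries and start at 0, symbols are libraries, horizontal lines are means and bars are SD (n = 3). BCL6, NCOR1 and TBL1XR1 are highest in the GSK591 libraries of 96 h, where BCL6 averages 523 CPM against 462 CPM in vehicle, while HDAC3, BCOR and CTBP1 overlap between GSK591 and vehicle at both times.

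Across the 6 genes, 3 were called at 96 h (adjusted p under 0.05 in edgeR's quasi-likelihood test), and all 3 were higher in GSK591 cells. Over all 13514 genes tested 40.2% were called, 20.7% higher and 19.6% lower, so 3 of 6 is near the background and no excess of calls among these genes is claimed. The same 3 genes, BCL6, NCOR1 and TBL1XR1, were those whose groups did not overlap, which held for 54.6% of the genes tested, 25% being higher in GSK591 cells without overlap. Without vehicle library 1, vehicle library 3, GSK591 library 1 or GSK591 library 3 of 96 h, 1 of the 6 was called.

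NCOR1, the scaffold that joins BCL6 to HDAC3, differed most among the 6 genes. It had 258, 222 and 247 CPM in the GSK591 libraries at 96 h, against 189, 183 and 188 CPM in vehicle libraries at 96 h. All GSK591 values lay above all vehicle values, and the lowest GSK591 value was again that of replicate 2, at -0.12 from the group mean on the log2 scale. The log2 fold change was 0.39 ± 0.06 (SE, n = 3 each; 95% interval 0.25 to 0.53), or 1.31-fold (adjusted p = 0.00231, edgeR's quasi-likelihood test). The call held in each of the 15 alternatives tried, with the log2 fold change between 0.34 and 0.44 when 1 library was left out. Of the genes tested, 14.4% had a log2 fold change at least as high as that of NCOR1. In the authors' deposited table it was 0.39 with an FDR of 4.11e-06.

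At 24 h NCOR1 had 180.0, 178.8 and 180.6 CPM in GSK591 libraries, against 175, 168 and 169 CPM in vehicle libraries. The groups did not overlap and the log2 fold change was 0.07 ± 0.02 (adjusted p = 0.0419, edgeR's quasi-likelihood test). It did not hold without vehicle library 2 (adjusted p = 0.170 in edgeR's test), vehicle library 3 (0.0927), GSK591 library 1 (0.128) or GSK591 library 3 (0.124), with library size alone (0.06, 0.118) and with all 12 samples in 1 fit (0.07, 0.604). In the authors' deposited table NCOR1 had an FDR of 0.204 at 24 h. The effect at 96 h minus that at 24 h was 0.30 ± 0.07 on the log2 scale (95% interval 0.16 to 0.45; adjusted p = 0.00706, edgeR's test). NCOR1 was the 1 gene of the 6 called in this test, in which 24.1% of 13665 genes were called, 11% higher and 13.2% lower, and its call held in each of 19 alternatives. Without GSK591 library 2 of 96 h, 2 of the 6 were called, the added gene being BCL6.

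TBL1XR1, the exchange factor of the NCOR1 complex and a gene recurrently mutated in B-cell lymphoma, had 439, 396 and 413 CPM in GSK591 libraries at 96 h, against 378, 357 and 376 CPM in vehicle libraries at 96 h. The groups did not overlap, and replicate 2 was the lowest library of both treatments. The log2 fold change was 0.18 ± 0.06 (95% interval 0.05 to 0.31; adjusted p = 0.0321, edgeR's quasi-likelihood test). The call did not hold without vehicle library 1 (adjusted p = 0.0853 in edgeR's test), vehicle library 2 (0.0941), vehicle library 3 (0.0894), GSK591 library 1 (0.135) or GSK591 library 3 (0.0702), nor with no filter on low counts (0.0916), and the authors' deposited table gave an FDR of 0.0548 for TBL1XR1. Without both libraries numbered 2 the log2 fold change was 0.18 with an adjusted p of 0.00330 in edgeR's test.

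TBL1XR1 was also called at 24 h. It had 375, 359.6 and 382 CPM in GSK591 libraries, against 349, 335 and 350.2 CPM in vehicle libraries. The groups did not overlap, and the log2 fold change was 0.11 ± 0.03 (adjusted p = 0.00595, edgeR's quasi-likelihood test). The call held when any 1 library was left out, with a log2 fold change between 0.09 and 0.14, and it was lost with all 12 samples in 1 fit (0.11, adjusted p = 0.347 in edgeR's test). In all, 2 of the 6 genes were called at 24 h, TBL1XR1 and NCOR1, both higher, where 14.7% of 13173 genes were called, 7.44% higher and 7.29% lower. Without vehicle library 2, vehicle library 3, GSK591 library 1 or GSK591 library 3 of 24 h, 1 of the 6 was called, TBL1XR1. Groups of 3 of the 6 did not overlap at 24 h, which held for 31.9% of the genes tested, 15.7% being higher in GSK591 cells without overlap. The 96 h effect minus the 24 h effect was 0.06 ± 0.06 for TBL1XR1 (adjusted p = 0.541, edgeR's test; 95% interval -0.08 to 0.19).

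**Figure D2:**
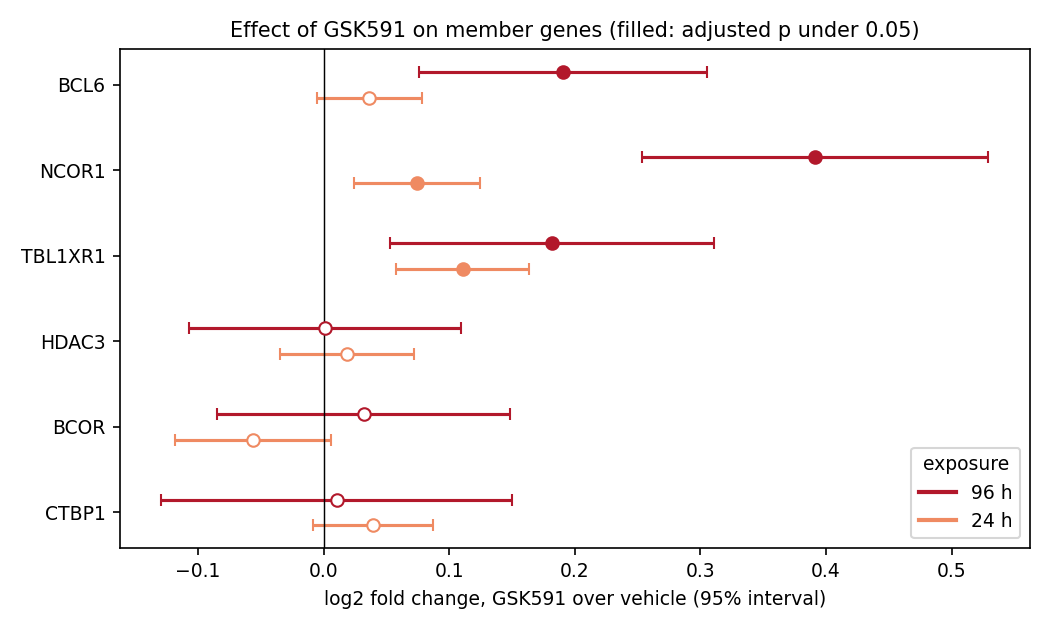
Log2 fold change of GSK591 over vehicle for each gene at 96 h (dark red) and 24 h (orange), from edgeR's fit within each time. Points are estimates, bars are 95% intervals, and filled points passed the threshold of 0.05. At 96 h the intervals of BCL6, NCOR1 and TBL1XR1 lie above 0 and those of HDAC3, BCOR and CTBP1 span 0.

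HDAC3, the deacetylase of the NCOR1 complex, had 103.6, 105.9 and 110.7 CPM in GSK591 libraries at 96 h, against 108.5, 108.9 and 105.7 CPM in vehicle libraries at 96 h. The groups overlapped. The log2 fold change was 0.00 ± 0.05, with a 95% interval of -0.11 to 0.11 (adjusted p = 0.985, edgeR's quasi-likelihood test). At 24 h HDAC3 had 112.7, 116.2 and 114.6 CPM in GSK591 libraries, against 110.9, 115.2 and 113.0 CPM in vehicle libraries, again with overlap (0.02 ± 0.03, adjusted p = 0.675). An effect of the size fitted for NCOR1 at 96 h lay outside the interval of HDAC3, although the 2 effects were not tested against each other.

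BCOR, the corepressor that links BCL6 to the Polycomb-type complex PRC1.1, had 80.2, 81.0 and 80.0 CPM in GSK591 libraries at 96 h, against 77.1, 83.8 and 77.5 CPM in vehicle libraries at 96 h. The GSK591 values lay inside the range of vehicle. The log2 fold change was 0.03 ± 0.05, with a 95% interval of -0.08 to 0.15 (adjusted p = 0.645, edgeR's quasi-likelihood test). At 24 h BCOR had 87.5, 91.3 and 85.7 CPM in GSK591 libraries, against 89.2, 94.6 and 91.5 CPM in vehicle libraries, and the groups overlapped (-0.06 ± 0.03, adjusted p = 0.219).

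CTBP1, a corepressor used by BCL6 at its own gene, had 226, 246 and 237 CPM in GSK591 libraries at 96 h, against 232, 228 and 251 CPM in vehicle libraries at 96 h. The groups overlapped, and the log2 fold change was 0.01 ± 0.06 with a 95% interval of -0.13 to 0.15 (adjusted p = 0.906, edgeR's quasi-likelihood test). At 24 h CTBP1 had 231, 232 and 225 CPM in GSK591 libraries, against 220.1, 224 and 226 CPM in vehicle libraries, with overlap (0.04 ± 0.02, adjusted p = 0.270). The effect at 96 h minus that at 24 h was -0.03 for HDAC3, 0.08 for BCOR and -0.04 for CTBP1 on the log2 scale. None of these 3 passed the threshold of edgeR's test (adjusted p between 0.382 and 0.692). In the authors' deposited table, HDAC3, BCOR and CTBP1 had an FDR of 1 at 96 h.

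Ratios of raw counts within a library do not depend on the scaling between libraries. The NCOR1 to HDAC3 ratio was 2.27 ± 0.20 in GSK591 libraries at 96 h (SD, n = 3), against 1.73 ± 0.05 in vehicle libraries at 96 h. The same ratio was 1.57 ± 0.03 in GSK591 libraries and 1.51 ± 0.06 in vehicle libraries at 24 h. Per library, NCOR1 counts were 2.49, 2.10 and 2.23 times those of HDAC3 in GSK591 cells at 96 h, so that replicate 2 was lowest, and 1.75, 1.68 and 1.78 times in vehicle cells at 96 h. The BCL6 to HDAC3 ratio was 4.90 ± 0.24 in GSK591 libraries and 4.29 ± 0.07 in vehicle libraries at 96 h, and the TBL1XR1 to HDAC3 ratio 3.90 ± 0.29 in GSK591 libraries and 3.44 ± 0.14 in vehicle libraries. NCOR1 also stood higher relative to BCL6, at 0.464 ± 0.018 in GSK591 libraries and 0.404 ± 0.005 in vehicle libraries at 96 h. The BCOR to HDAC3 ratio, at 0.754 ± 0.028 in GSK591 and 0.738 ± 0.030 in vehicle libraries, overlapped between treatments, as did the CTBP1 to HDAC3 ratio, at 2.22 ± 0.10 in GSK591 and 2.20 ± 0.15 in vehicle libraries. These ratios are descriptions with no test, and they show unequal change within a library, not that HDAC3 was constant.

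**Figure D3:**
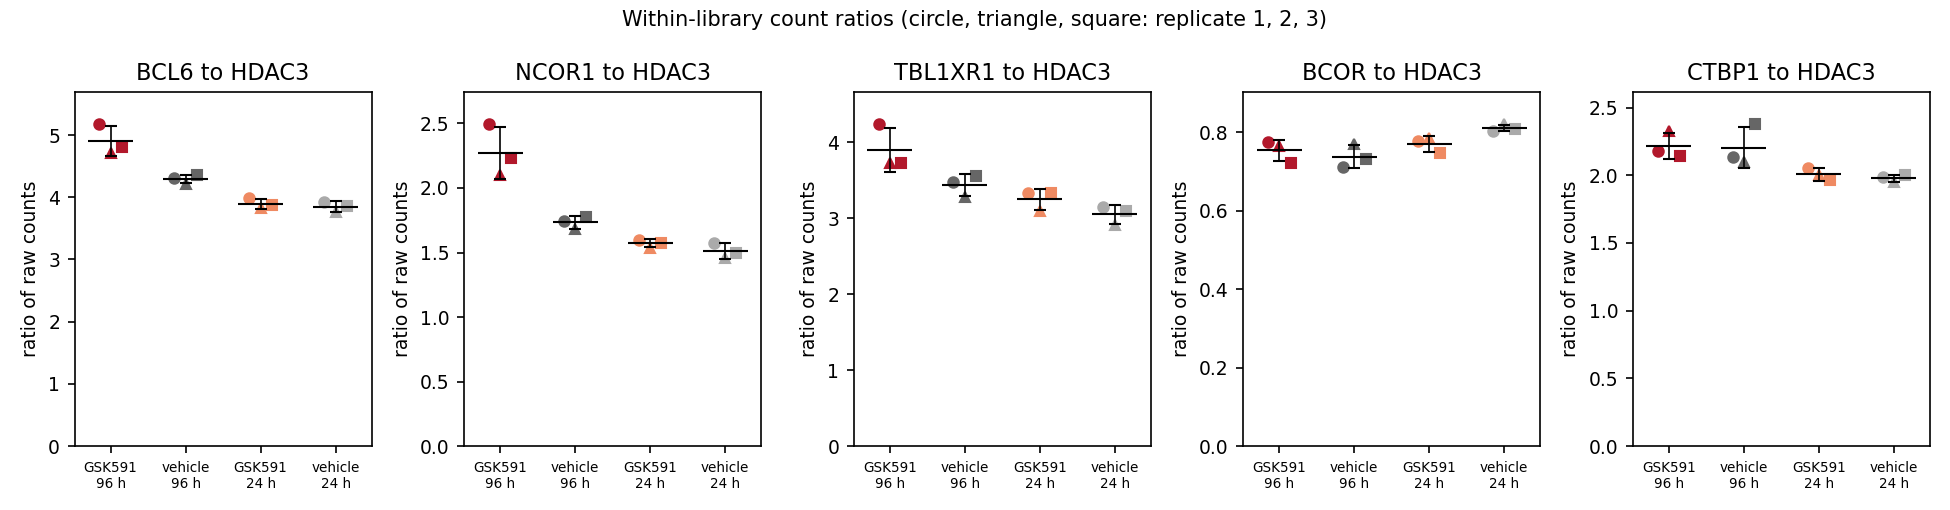
Ratios of raw counts to HDAC3 within each library for BCL6, NCOR1, TBL1XR1, BCOR and CTBP1. Vertical axes start at 0, symbols are libraries, horizontal lines are means and bars are SD (n = 3). The NCOR1 ratio averages 2.27 in GSK591 libraries at 96 h against 1.73 in vehicle, with no overlap, whereas the BCOR and CTBP1 ratios overlap.

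The order of the 4 groups differed between the genes. For BCL6 and NCOR1, GSK591 at 96 h was highest, then vehicle at 96 h, GSK591 at 24 h and vehicle at 24 h, and no neighbours in this order overlapped. TBL1XR1 was highest in GSK591 at 96 h and lowest in vehicle at 24 h, and its GSK591 group of 24 h and vehicle group of 96 h overlapped. BCOR and HDAC3 ran the other way in time, with both groups of 96 h below both groups of 24 h. For BCOR, vehicle and GSK591 overlapped within each time, and so they did for HDAC3. For CTBP1 all neighbours in the order overlapped.

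Some of these genes also differed between the times in vehicle cells. In vehicle cells, BCOR fell to 79.5 ± 3.8 CPM at 96 h, against 91.7 ± 2.7 CPM at 24 h (SD, n = 3 each), with a log2 fold change of -0.21 ± 0.04 (adjusted p = 0.00115, edgeR's quasi-likelihood test of 12 samples). This call held in each of 19 alternatives. NCOR1 rose in vehicle cells, with 187 ± 3.4 CPM at 96 h and 171 ± 3.6 CPM at 24 h (0.13 ± 0.05, adjusted p = 0.0390, edgeR's test). That call was lost without any 1 of the 6 libraries of 24 h, vehicle library 1 of 96 h or vehicle library 3 of 96 h, with adjusted p between 0.0544 and 0.122 in edgeR's test. Thus 2 of the 6 genes were called between the times in vehicle, where 47.7% of 13665 genes were called, 24.2% higher and 23.5% lower.

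The other 4 genes did not pass in that comparison of vehicle at 96 h with vehicle at 24 h. Its spread was estimated from all 12 libraries, so the GSK591 libraries entered it too. The SD of BCL6 CPM was 0.958% of the mean in vehicle at 96 h and 0.409% in vehicle at 24 h, against 3.92% in GSK591 at 96 h. BCL6 had a log2 fold change of 0.09 ± 0.04 (adjusted p = 0.0561), TBL1XR1 0.10 ± 0.04 (0.0714), CTBP1 0.08 ± 0.04 (0.129) and HDAC3 -0.07 ± 0.04 (0.131), all in edgeR's quasi-likelihood test. For BCL6 the call appeared without vehicle library 2 (0.0497) or any 1 GSK591 library of 96 h (0.0101 to 0.0497), and for TBL1XR1 without vehicle library 2 (0.0348), GSK591 library 1 (0.0443) or GSK591 library 2 (0.0229) of 96 h. Of the 6 genes, 1 was therefore called without any 1 of the 8 libraries named for NCOR1, and 4 without vehicle library 2, GSK591 library 1 or GSK591 library 2 of 96 h. Groups of all 6 genes did not overlap between the times, which held for 61.1% of the genes tested, 30.8% being higher at 96 h without overlap. The times were deposited as separate tables, so time and any difference in how they were handled cannot be told apart.

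Levels can be compared between genes only per length, here as CPM per kilobase of the joined exons in GENCODE 29 (basic set). BCL6 was the most abundant of the 6 per kilobase in all 4 groups, at 129 ± 5.1 CPM per kb in GSK591 cells at 96 h, against 114 ± 1.1 CPM per kb in vehicle cells at 96 h. The deacetylase HDAC3 followed at 54.5 ± 1.8 CPM per kb in GSK591 and 55.0 ± 0.9 CPM per kb in vehicle cells at 96 h. TBL1XR1 stood at 50.6 ± 2.7 CPM per kb in GSK591 and 45.02 ± 1.4 CPM per kb in vehicle cells, so it was nearer to HDAC3 in treated cells. CTBP1 followed at 37.0 ± 1.6 CPM per kb in GSK591 and 37.1 ± 1.9 CPM per kb in vehicle cells at 96 h. NCOR1 was at 21.9 ± 1.7 CPM per kb in GSK591 and 16.8 ± 0.3 CPM per kb in vehicle cells, and BCOR was lowest at 9.69 ± 0.06 CPM per kb in GSK591 and 9.58 ± 0.46 CPM per kb in vehicle cells. The exon lengths used, from 1.959 kb for HDAC3 to 11.078 kb for NCOR1, join all annotated isoforms, so the order rests on that choice.

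Close relatives of TBL1XR1, BCOR, CTBP1 and BCL6 were examined as well. TBL1X, the X-linked relative of TBL1XR1, had 125.5, 97.5 and 121.4 CPM in GSK591 libraries at 96 h, against 98.6, 92.4 and 99.7 CPM in vehicle libraries at 96 h. GSK591 library 2 lay within vehicle, and TBL1X was called (0.26 ± 0.09, adjusted p = 0.0426, edgeR's quasi-likelihood test). The call was lost without any 1 library other than GSK591 library 2, with adjusted p between 0.0831 and 0.161, and with no filter on low counts. BCORL1, the relative of BCOR, had 39.1, 28.5 and 36.6 CPM in GSK591 libraries, against 29.3, 24.1 and 28.2 CPM in vehicle libraries at 96 h. Its groups overlapped in the same way, it was called (0.36 ± 0.12, adjusted p = 0.0371, edgeR's test), and it did not stay called without vehicle library 2 (0.138), vehicle library 3 (0.0718), GSK591 library 1 (0.137) or GSK591 library 3 (0.115).

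CTBP2, the relative of CTBP1, was at a low level, with 3.99, 2.60 and 3.86 CPM in GSK591 libraries at 96 h, against 2.30, 1.63 and 2.28 CPM in vehicle libraries at 96 h. The groups did not overlap and CTBP2 was called (0.73 ± 0.20, adjusted p = 0.0177, edgeR's quasi-likelihood test). The call did not hold without vehicle library 2 (0.0616), GSK591 library 1 (0.0659) or GSK591 library 3 (0.0669). CTBP2 shares 3416 exon bases with ZRANB1 on the opposite strand in GENCODE 29, and no strand setting is given in the sources used here, so its value is uncertain. CTBP1 counts were 70.9 ± 20.8 times those of CTBP2 in GSK591 libraries and 117 ± 20.8 times in vehicle libraries at 96 h. At 24 h TBL1X, BCORL1 and CTBP2 were not called, with adjusted p between 0.190 and 0.866 in edgeR's test. BCL6B, the closest relative of BCL6, had between 0 and 2 counts per library and was not tested.

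Around the members, 7 lists of partner and related genes were counted, to be read against 40.2% of all genes called at 96 h and 14.7% at 24 h, and against a median log2 fold change of all genes of 0.00 at both times. The 5 corepressors are themselves in these lists, and BCL6 is in none of them. Of the 7 genes of the NCoR complex, 4 were called at 96 h, all higher (list median 0.18), namely NCOR1, TBL1XR1, TBL1X and GPS2, a small subunit that binds NCOR1 and TBL1XR1. GPS2 had 114 ± 17.1 CPM in GSK591 cells and 82.4 ± 5.8 CPM in vehicle cells at 96 h (0.48 ± 0.10, adjusted p = 0.00709, edgeR's quasi-likelihood test), and its call held in each of 15 alternatives. At 24 h GPS2 averaged 103.6 CPM in GSK591 cells and 103.2 CPM in vehicle cells, so vehicle cells were lower at 96 h than at 24 h. HDAC3 was not called. Without any 1 library other than GSK591 library 2, 2 of the 7 were called. At 24 h 2 of 7 were called, NCOR1 and TBL1XR1 (list median 0.06), and 1 of 7 without vehicle library 2, vehicle library 3, GSK591 library 1 or GSK591 library 3.

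Of the 10 genes of the BCOR complex, 3 were called at 96 h, all higher (list median 0.11). They were BCORL1, KDM2B, the CpG-binding subunit that brings the complex to chromatin, and USP7, a deubiquitinase. KDM2B had 155 ± 5.2 CPM in GSK591 cells and 129 ± 3.6 CPM in vehicle cells at 96 h (0.28 ± 0.05, adjusted p = 0.00372, edgeR's quasi-likelihood test). USP7 had 474 ± 38.2 CPM in GSK591 cells and 387 ± 3.0 CPM in vehicle cells (0.31 ± 0.06, adjusted p = 0.00631). Without GSK591 library 2 of 96 h, 6 of the 10 were called. At 24 h 3 of 10 were called, all higher: USP7 (0.12, adjusted p = 0.00113), YAF2 (0.14, 0.0342) and KDM2B (0.08, 0.0374) in edgeR's test. The ubiquitin ligase partner YAF2 was lost without any 1 library (0.0551 to 0.124), and KDM2B without any 1 library other than GSK591 library 2 (0.0504 to 0.138). USP7 held when any 1 library was left out, so that without any 1 of those 5 libraries 1 of the 10 was called.

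Of the 12 genes of the CtBP complex, 6 were called higher and 1 lower at 96 h (list median 0.17). Those with the smallest p were ZMYM2, an MYM-type zinc finger subunit (0.28 ± 0.05, adjusted p = 0.00464), RCOR3, a CoREST protein (0.31 ± 0.06, 0.00475), CTBP2 and ZNF217, a zinc finger subunit (0.33 ± 0.09, 0.0186), in edgeR's quasi-likelihood test. The gene that fell was KDM1A, the histone demethylase LSD1, with 81.3 ± 0.8 CPM in GSK591 cells and 97.8 ± 5.2 CPM in vehicle cells at 96 h (-0.25 ± 0.05, adjusted p = 0.00644). ZNF217 was lost without vehicle library 2 (0.0803), GSK591 library 1 (0.0719) or GSK591 library 3 (0.0665), and without these same libraries 3 of the 12 were called. At 24 h 1 of 12 was called, the deacetylase HDAC1 (0.07 ± 0.02, adjusted p = 0.0143), and it was lost without GSK591 library 3 (0.0802), which left 0 of 12 called in edgeR's test and 3 with an unadjusted p under 0.05. DESeq2 called 1 of the 12 on all 6 libraries, and edgeR called 2 without vehicle library 3.

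Of 19 subunits of NuRD and SIN3 and class IIa deacetylases, 6 were called higher and 1 lower at 96 h (list median 0.06). HDAC7, a class IIa deacetylase that acts with NCOR1 and HDAC3, had 136 ± 3.5 CPM in GSK591 cells and 93.0 ± 6.6 CPM in vehicle cells at 96 h (0.56 ± 0.06, adjusted p = 0.000651, edgeR's quasi-likelihood test). MTA2, a NuRD subunit (0.28, adjusted p = 0.00538), SIN3B, the scaffold of a SIN3 complex (0.34, 0.0108), and HDAC5 (0.29, 0.0113) were also higher. HDAC5 was lost without GSK591 library 1 (0.0506). The NuRD subunit MTA1 fell to 85.3 ± 9.3 CPM in GSK591 cells, against 113 ± 1.9 CPM in vehicle cells at 96 h (-0.39 ± 0.08, adjusted p = 0.00578). The count for the list was 4 without GSK591 library 1 and 12 without GSK591 library 2.

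At 24 h 5 of these 19 genes were called, all higher, among them MTA2 (0.10, adjusted p = 0.00345), MBD2, the methyl-CpG-binding subunit of NuRD (0.10, 0.0101), HDAC7 (0.12, 0.0167) and MTA3, the NuRD subunit that BCL6 binds (0.10, 0.0299), in edgeR's quasi-likelihood test. MTA2 held when any 1 library was left out. MBD2 was lost without vehicle library 2 (0.0505) or GSK591 library 3 (0.0703), HDAC7 without vehicle library 1 (0.0816), vehicle library 2 (0.0896) or GSK591 library 1 (0.0980), and MTA3 without vehicle library 1 (0.0983), vehicle library 2 (0.108) or GSK591 library 3 (0.165). The count was 3 without vehicle library 1, 1 without vehicle library 2, 3 without GSK591 library 1 and 2 without GSK591 library 3.

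**Figure D4:**
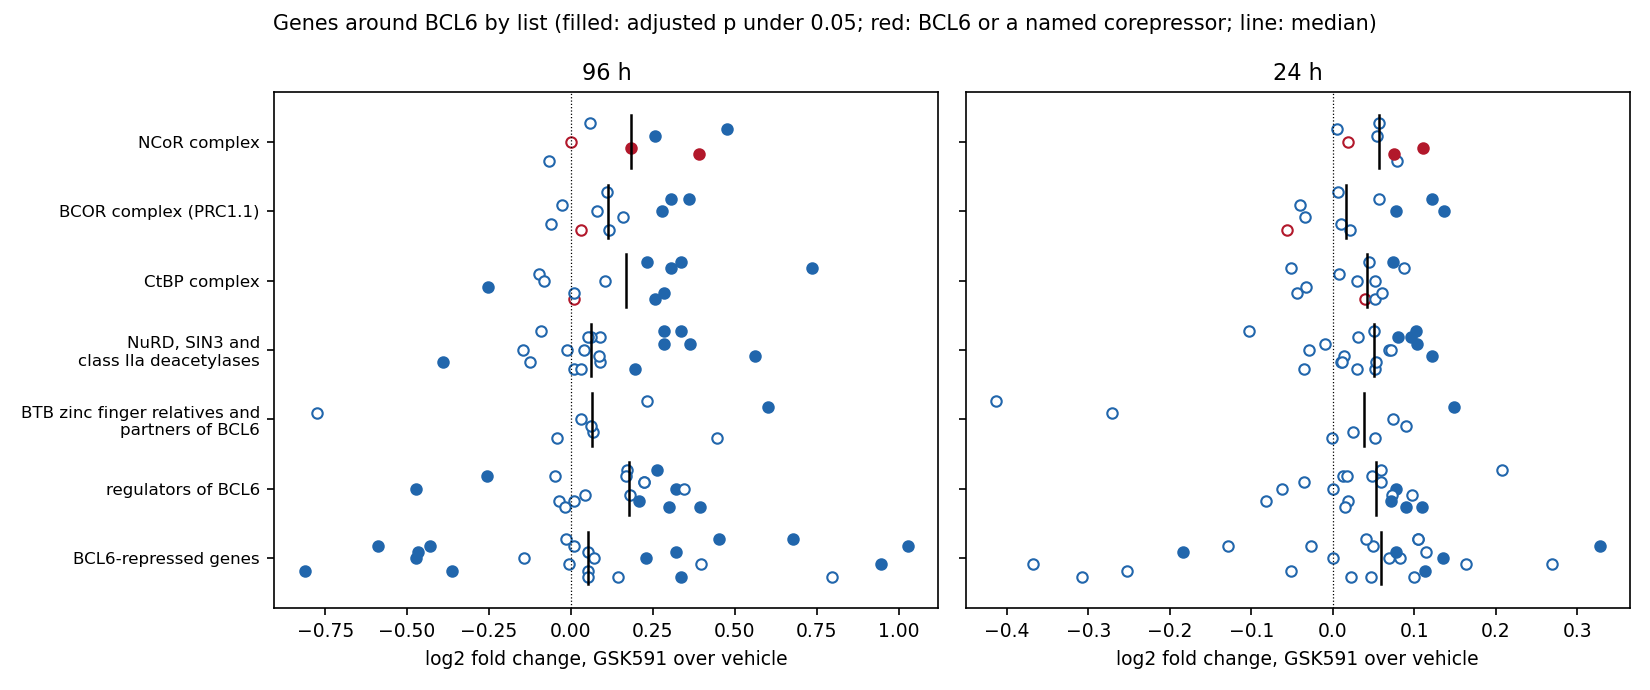
Log2 fold change of GSK591 over vehicle for the genes of 7 lists around BCL6, at 96 h (left) and 24 h (right). Each point is a tested gene, filled where it passed the threshold and red where it is one of the corepressors followed here, the short line is the list median, and the horizontal axes differ in range between the times. At 96 h the list medians lie between 0.05 and 0.18.

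Among 10 relatives and partners of BCL6 with a BTB domain, 8 were tested and 1 was called at 96 h (list median 0.07). This was BACH2, a repressor that acts beside BCL6 in B cells, with 268 ± 14.4 CPM in GSK591 cells and 178 ± 6.8 CPM in vehicle cells at 96 h (0.60 ± 0.06, adjusted p = 0.000550, edgeR's quasi-likelihood test). It was also called at 24 h, at 188 ± 7.0 CPM in GSK591 cells and 169 ± 8.8 CPM in vehicle cells (0.15 ± 0.03, adjusted p = 0.00520). Both calls held when any 1 library was left out. The count for the list at 96 h was 2 without vehicle library 3 and 3 without GSK591 library 2, and at 24 h it was 2 without vehicle library 3.

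Of 18 genes that act on BCL6 itself, as transcription factors at its gene or as enzymes and chaperones that act on its protein, 6 were called higher and 2 lower at 96 h (list median 0.18). The acetyltransferases EP300 and CREBBP, which act against BCL6, were higher, with EP300 at 404 ± 29.4 CPM in GSK591 cells and 327 ± 16.8 CPM in vehicle cells (0.32, adjusted p = 0.00681, edgeR's quasi-likelihood test) and CREBBP at 204 ± 12.7 CPM in GSK591 cells and 167 ± 8.6 CPM in vehicle cells (0.30, 0.00683). The transcription factors SPI1 (PU.1; 0.39, 0.00871) and IRF8, an activator of BCL6 in germinal centre cells (0.21, 0.0117), were higher as well, though IRF8 was lost without vehicle library 1 (0.0686). IRF4, which represses BCL6, was lower, at 42.8 ± 1.0 CPM in GSK591 cells, against 60.1 ± 4.7 CPM in vehicle cells at 96 h (-0.47, adjusted p = 0.00140). At 24 h IRF4 averaged 42.0 CPM in GSK591 cells and 42.0 CPM in vehicle cells. It was thus vehicle cells, not GSK591 cells, whose IRF4 level differed between the times. HSP90AB1, a chaperone that stabilises BCL6, was also lower in GSK591 than in vehicle cells at 96 h (-0.26, adjusted p = 0.0142).

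At 24 h 4 of these 18 regulators were called, all higher: SPI1 (0.11, adjusted p = 0.0180), CREBBP (0.09, 0.0191), IRF8 (0.07, 0.0199) and EP300 (0.08, 0.0293) in edgeR's quasi-likelihood test. Each was lost without some library. SPI1 was lost without vehicle library 1 (0.0653), vehicle library 2 (0.0622) or GSK591 library 1 (0.140), and IRF8 without vehicle library 2 (0.0625), GSK591 library 1 (0.0987) or GSK591 library 3 (0.0640). CREBBP and EP300 were lost without vehicle library 1, vehicle library 2, GSK591 library 1 or GSK591 library 3, with adjusted p between 0.0526 and 0.150. The count was 2 without vehicle library 1, 1 without GSK591 library 3, and 0 without vehicle library 2 or GSK591 library 1 in edgeR's test, where 5 had an unadjusted p under 0.05 in each of those fits. DESeq2 called 4 on all 6 libraries.

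Of 24 genes held to be repressed by BCL6, 7 were called higher and 6 lower at 96 h (list median 0.05), so they did not move one way. ATR, a checkpoint kinase (0.34 ± 0.07, adjusted p = 0.00578), EP300 and the chemokine receptor CXCR4 (0.45 ± 0.12, 0.0164) were among those higher in edgeR's quasi-likelihood test. CXCR4 was lost without vehicle library 2 (0.0676), GSK591 library 1 (0.0627) or GSK591 library 3 (0.0665). In vehicle cells CXCR4 averaged 300 CPM at 96 h and 391 CPM at 24 h, and in GSK591 cells 407 CPM at 96 h and 420 CPM at 24 h. The cell cycle inhibitor CDKN1A was lower, at 28.96 ± 2.8 CPM in GSK591 cells, against 44.0 ± 0.6 CPM in vehicle cells at 96 h (-0.59, adjusted p = 0.00122). At 24 h CDKN1A averaged 139 CPM in GSK591 cells and 152 CPM in vehicle cells, so both treatments were lower at 96 h. PDCD2, a ribosome biogenesis protein (-0.47, 0.000828), and IRF4 were also lower in GSK591 than in vehicle cells at 96 h. At 24 h 5 of 24 were called, 4 higher, among them NFKB1 (0.11, adjusted p = 0.0258), EP300 and ID2 (0.33, 0.0477), and PDCD2 lower (-0.18, 0.000249), in edgeR's test.

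PDCD2 was called at 24 h when any 1 library was left out. NFKB1, an NF-kB subunit, was lost without vehicle library 2 (0.134), GSK591 library 1 (0.121) or GSK591 library 3 (0.101) in edgeR's test. ID2, an inhibitor of helix-loop-helix factors, was lost without any 1 of vehicle replicates 1 and 2 and GSK591 replicates 1 and 3 (0.0998 to 0.260). With all 12 samples in 1 fit, none of the 24 h calls named in these lists passed. The count for the repressed list at 24 h was 2 without vehicle library 2, 3 without GSK591 library 1, 8 without GSK591 library 2 and 2 without GSK591 library 3. The list shares IRF4 and PRDM1 with plasma cell markers, of which 4 of 5 were called lower at 96 h. Over all genes tested at 96 h, 19.6% were called lower. SDC1, among those 4, was at a low level, averaging 0.213 CPM in GSK591 cells and 0.387 CPM in vehicle cells at 96 h. The marker not called was PRDM1, the plasma cell regulator, named after its values were seen, at 0.253 ± 0.018 CPM in GSK591 cells and 0.190 ± 0.009 CPM in vehicle cells at 96 h (0.40 ± 0.24, adjusted p = 0.220, edgeR's test). Those 5 markers summed to between 84.8 and 87.9 CPM in GSK591 libraries at 96 h, against 116 to 133 CPM in vehicle libraries at 96 h. Their part in the counts of this list was not tested.

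Genes whose profile over the 12 libraries was most like that of a member were sought among 8926 genes with a mean log2 CPM of at least 3, by Pearson correlation of log2 CPM. Those nearest to BCL6 were ARID4A (0.994), TSPYL2 (0.993), PTPN22 (0.992), ZNF238 (0.990) and ZCCHC6 (0.990). Their log2 fold changes at 96 h lay between 0.51 for ZCCHC6 and 0.88 for TSPYL2, beside 0.19 for BCL6. Nearest to NCOR1 were RSBN1L (0.998) and PTPRC (0.997), and nearest to TBL1XR1 were ASB13 (0.978) and RLF (0.9754). BCOR was most like ARRDC3 (0.965) and THUMPD3 (0.962), HDAC3 was close to INTS9 (0.961), and CTBP1 was most like C17orf62 (0.849) and FAM125A (0.846). Among the members, TBL1XR1 correlated with NCOR1 at 0.932 and with BCL6 at 0.914, BCOR with HDAC3 at 0.802, and BCL6 with BCOR at -0.683. These coefficients share the 4 groups and the libraries numbered 2, and carry no test.

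**Figure D5:**
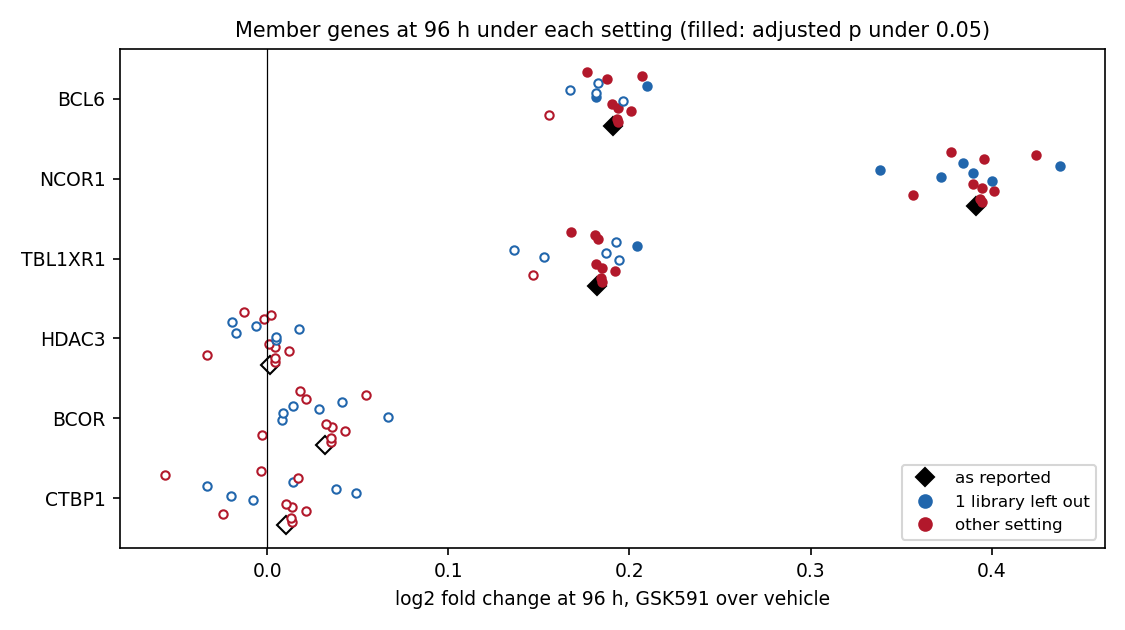
Log2 fold change at 96 h of each member as reported (diamonds), with 1 library left out (blue) and under the other alternatives (red); filled points passed the threshold of 0.05. NCOR1 stays filled throughout, BCL6 and TBL1XR1 stay above 0 but are open in 5 and 6 of their 15 alternatives, and HDAC3, BCOR and CTBP1 have no filled point.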

How the data were processed

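Messenger RNA of 12 SUDHL6 samples was sequenced, with 3 samples in each of 4 groups. The authors deposited raw counts per gene symbol in 1 table for each time, and the submitters' processing notes name STAR, HTSeq and edgeR with the hg19 (GRCh37) build. The authors also deposited, per the file headers, log2 fold changes and p-values with an FDR for each time, which are quoted only where named.

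Counts were tested with edgeR 4.0.16 (R 4.3.3). Each time was fitted alone on its 6 samples by the quasi-likelihood test with TMM scaling and filterByExpr, two-sided, with Benjamini-Hochberg adjustment over all genes tested and a threshold of 0.05. The difference between times, and vehicle at 96 h over 24 h, came from 1 fit of 12 samples. Standard errors are the fold change divided by the root of F, and intervals are 95%. DESeq2 1.42.0 and the other alternatives are given after the report. The scripts were tested on simulated data. CPM were TMM-scaled over 12 libraries.

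The genes and lists were chosen with earlier results of these data known. All 6 genes and their paralogs were named, of each list up to 4 called genes with the smallest p in each direction at each time, and the genes most alike in profile (5 for BCL6, 2 for each other member), except that some genes these rules name are not reported here. No antisense neighbour that shares exon bases with BCL6, NCOR1, HDAC3 or CTBP1 in GENCODE 29 was in the count tables, and no strand setting is given in the sources used here. The labels do not say that equal replicate numbers mark a shared batch, so no block entered the main fits.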

Additional observations from a re-analysis of the deposited data

Results flagged for a closer look

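The effect of GSK591 on NCOR1 differed between the times. The difference of its log2 fold change, 96 h minus 24 h, was 0.303 (SE 0.07; adjusted p = 0.00706, edgeR's quasi-likelihood test of 12 samples), and this test of the difference itself is what brought it here. NCOR1 averaged 243 ± 18.5 CPM in GSK591 cells and 187 ± 3.4 CPM in vehicle cells at 96 h, and 179.8 ± 0.9 CPM in GSK591 cells and 171 ± 3.6 CPM in vehicle cells at 24 h (SD, n = 3 each). All 3 GSK591 libraries lay above all 3 vehicle libraries at both times. Leaving out 1 library at a time gave differences between 0.25 and 0.36. The times were deposited as separate tables, so time and any difference in handling cannot be told apart.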

How the results depend on the processing

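NCOR1 at 96 h, its difference between times and BCOR in vehicle kept their calls in each alternative run. At 96 h with no filter, BCL6 was 0.156, TBL1XR1 0.147, BCOR -0.00313, HDAC3 -0.0335 and CTBP1 -0.0245, with 1 member, 2 NCoR and 2 BTB genes called; BTB genes called were 2 with DESeq2 and 3 with the replicate block. With the counts of the deep library thinned, HDAC3 was -0.00170. Without both libraries numbered 2, 8201 genes were called (5437 with all), CTBP1 was -0.0567, and 7 BCOR complex, 13 NuRD/SIN3 and 3 BTB genes were called. With 12 samples in 1 fit HDAC3 was -0.0129, CTBP1 -0.00359 and BTB genes called 3. At 24 h, DESeq2 size factors gave 2 CtBP genes. Library size alone gave NCOR1 0.0568, 1 member, 1 NCoR, 1 BCOR complex, 2 NuRD/SIN3 and 2 repressed genes called, and 0 regulators in edgeR's test (6 unadjusted, 4 by DESeq2). No filter gave 8 repressed genes, and the replicate block 2 CtBP, 2 BTB, 7 regulators and 9 repressed genes. One fit of 12 samples, which has a larger spread, called 29 genes at 24 h (1940 in the fit of 6), with NCOR1 at 0.0746, TBL1XR1 at 0.111 and 0 members. That fit called 0 genes of every list in edgeR's test; the unadjusted counts were 1 NCoR, 2 BCOR complex, 0 CtBP, 2 NuRD/SIN3, 1 BTB, 0 regulators and 4 repressed, and DESeq2 called 2, 2, 1, 4, 1, 4 and 4 in the same order on 6 samples.

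The difference between times for BCL6 was 0.175 with library size alone, 0.159 with at least 5 CPM and 0.139 with DESeq2, each with 2 members called, and HDAC3 was 0.00303 with library size alone. For vehicle, BCL6 was 0.145, 0.112 and 0.0853 under those settings, TBL1XR1 0.160 with library size alone, 0.126 with at least 5 CPM and 0.103 with the replicate block, and CTBP1 0.142 with library size alone, with 5 members called there and 4 with at least 5 CPM. Leaving out 1 library gave, at 96 h, BCL6 0.167 to 0.210, TBL1XR1 0.136 to 0.204, HDAC3 -0.0195 to 0.0173, CTBP1 -0.0333 to 0.0487, 3438 to 7485 genes called, 1 to 3 members, 2 to 4 NCoR, 2 to 6 BCOR complex, 3 to 7 CtBP, 4 to 12 NuRD/SIN3 and 1 to 3 BTB genes. At 24 h it gave NCOR1 0.0628 to 0.0928, BCORL1 -0.0163 to 0.0930, CTBP2 -0.185 to 0.105, 980 to 2208 genes, 1 to 2 members, 1 to 2 NCoR, 1 to 2 BCOR complex, 0 to 2 CtBP, 1 to 6 NuRD/SIN3, 1 to 2 BTB, 0 to 6 regulators and 2 to 8 repressed genes. For the difference it gave BCL6 0.121 to 0.172, 1 to 2 members and 1991 to 5712 genes, and for vehicle NCOR1 0.116 to 0.145, BCL6 0.0803 to 0.0912, TBL1XR1 0.0825 to 0.126 and 1 to 4 members. With library size alone the median log2 fold change of all genes tested shifted as well. It was 0.0712 for vehicle (0.0134 with TMM), 0.0288 for the difference (-0.00507 with TMM) and -0.0187 at 24 h (-0.000821 with TMM). The cause of the shifts between settings and between libraries left out was not tested. Whether same-numbered samples form pairs is not given in the labels. Deviations of same-numbered samples from their group means correlated at 0.604, 0.371 and 0.0509 at 96 h and 0.0793, 0.481 and 0.0640 at 24 h. Every GSK591 sample correlated best with its own number at 96 h, and replicates 1 and 3 did not at 24 h.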
